A study of Mus musculus with 6 samples.

Results

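The T cell receptor (TCR) gamma locus of the mouse was followed in sorted thymocytes through 5 of its genes, the constant genes Tcrg-C1, Tcrg-C2 and Tcrg-C4 and the variable genes Tcrg-V1 and Trgv2. They were read by gene symbol from a table of 41386 genes that lists 15 genes of the locus, and 10 of these are not among the 5. The 5 were picked because earlier results of the same libraries had placed them among the larger increases in GFP-positive cells, and with the values of GFP-negative library 3 in view. Their difference between the groups is therefore given as a description, with no test. Both groups were DN4 thymocytes of adult C57BL/6 mice of genotype Gata3(g/+), which carry a Gata3 GFP reporter allele, sorted by GFP into a negative and a positive group of 3 libraries. The labels hold no animals without the reporter allele, and they do not say which animals gave which library, so any spread is between libraries and may be technical. They also do not say whether cells with a gamma-delta TCR at the surface were removed from the DN4 sort.

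The gamma chain pairs with the delta chain to form the receptor of gamma-delta T cells, a lineage that separates from alpha-beta T cells among the double-negative thymocytes. In the mouse the locus is arranged in clusters, each with its own variable (V), joining (J) and constant (C) genes. Trgv2 is joined to the cluster of Tcrg-C2, Tcrg-V1 to that of Tcrg-C4, and Tcrg-V4, Tcrg-V5, Tcrg-V6 and Tcrg-V7 to that of Tcrg-C1. Opening of the locus depends on the IL-7 receptor and STAT5, and rearranged gamma genes are often silenced in cells of the alpha-beta lineage. DN4 cells lie after the checkpoint for a productive TCR beta chain and before the stage at which CD4 and CD8 appear.

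The constant genes are alike enough to matter for how reads are assigned, so their sequences are shown first. In GENCODE M21 the locus spans 174.7 kb of chromosome 13 (chr13:19178024-19352756 of mm10). Tcrg-C1 (plus strand), Tcrg-C2 (minus strand) and Tcrg-C4 (plus strand) begin with a coding exon of 330 bases. The first 100 bases of it were, 5′ to 3′ on each gene's own strand and with capitals where the 3 genes are not all alike:
Tcrg-C1: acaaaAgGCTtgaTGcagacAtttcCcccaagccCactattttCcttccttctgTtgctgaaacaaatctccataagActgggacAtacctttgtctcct
Tcrg-C2: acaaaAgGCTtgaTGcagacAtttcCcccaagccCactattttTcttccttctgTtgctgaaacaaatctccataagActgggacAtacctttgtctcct
Tcrg-C4: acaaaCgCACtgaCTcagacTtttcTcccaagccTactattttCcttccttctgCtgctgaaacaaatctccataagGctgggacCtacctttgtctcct

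These stretches lie at chr13:19214103-19214202, chr13:19307452-19307551 and chr13:19344558-19344657. Tcrg-C1 and Tcrg-C2 differed at 1 of the 100 positions, and Tcrg-C4 differed from Tcrg-C1 at 12. Over the whole exon the identity was 97.3% between Tcrg-C1 and Tcrg-C2 and 82.1% between Tcrg-C1 and Tcrg-C4. The next exons, which encode the short connecting piece between the constant domain and the membrane, tell Tcrg-C1, Tcrg-C2 and Tcrg-C4 apart. Tcrg-C3, not shown, has an exon 2 of 44 bases that is nearly the same as that of Tcrg-C1. The capitals mark the run of 15 bases in Tcrg-C1 that Tcrg-C2 lacks, and Tcrg-C4 has 2 exons in this place:
Tcrg-C1, exon 2: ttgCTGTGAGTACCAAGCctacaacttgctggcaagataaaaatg
Tcrg-C2, exon 2: ttgctacaacttgctggcaagataaaaatg
Tcrg-C4, exon 2: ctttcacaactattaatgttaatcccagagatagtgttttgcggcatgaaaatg
Tcrg-C4, exon 3: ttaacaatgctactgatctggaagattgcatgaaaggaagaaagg

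They lie at chr13:19215864-19215908, chr13:19305769-19305798, chr13:19349536-19349589 and chr13:19350330-19350374. Of all windows of 50 bases in the transcript, 34.2% of those of Tcrg-C1 and 25.4% of those of Tcrg-C2 also occurred in the transcript of another gene, each time a gamma constant gene, and 0 of the 936 windows of Tcrg-C4 did. The values of Tcrg-C1 and Tcrg-C2 therefore rest partly on how the authors' software divided shared reads, while Tcrg-C4 has no such overlap at this length.

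The variable genes were compared in the same way, since Trgv2 and Tcrg-V1 belong to different clusters but are close copies. Their V exons were 95.1% identical, against 68.2% between Trgv2 and Tcrg-V4. The last 60 bases of the V exon, with the cysteine codon of the motif TACTACTGT in capitals, read:
Trgv2: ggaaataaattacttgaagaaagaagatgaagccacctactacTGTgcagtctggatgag
Tcrg-V1: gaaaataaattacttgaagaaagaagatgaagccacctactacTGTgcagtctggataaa
Tcrg-V4: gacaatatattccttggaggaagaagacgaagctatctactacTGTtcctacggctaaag

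These stretches are chr13:19336573-19336632 (minus strand), chr13:19340395-19340454 and chr13:19185447-19185506 (both plus strand). Of the windows of 50 bases, 24.6% of those of Tcrg-V1 and 7.01% of those of Trgv2 occurred in another gene's transcript, in Tcrg-V3 or in each other. Their V transcripts are short, 374 bases for Tcrg-V1 and 491 for Trgv2, so levels per length of these genes depend on the length the authors' software used.

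Levels were deposited as FPKM, fragments scaled to gene length and to library size as set by the authors' software, so comparisons between genes depend on the lengths used. The sources used here give no read totals, so no counting interval accompanies a value. Between 10793 and 11632 genes reached 1 FPKM in a library. Gata3, the gene of the reporter, stood at 20.8 to 24.3 FPKM in GFP-negative and 62.7 to 64.2 FPKM in GFP-positive libraries. Of 11465 genes tested over the whole table with limma, 54.2% were called at an adjusted p of 0.05, 24.4% as higher in GFP-positive cells and 29.8% as lower. Under quantile normalization the 2797 higher and 3419 lower genes became 3494 and 2846, as the median over all genes moved on the log2 scale from -0.08 to 0.06. In bulk RNA a higher level in more cells of a type cannot be told apart from more RNA per cell.

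All 5 genes were higher in each GFP-positive library than in any GFP-negative library. The same held for 28.7% of the 11465 genes, and 63.8% had groups apart in either direction, shares from which nothing is read, since the 5 were picked on this contrast. All 5 passed the filter on low values, a mean of at least 1 FPKM. Likewise each of the 5 had a log2 fold change of at least 2, which 0.541% of all genes reached, and nothing is read from that share either. When 1 instead of 0.5 FPKM was added before the log, Tcrg-C4 (1.93) and Tcrg-V1 (1.96) fell below 2. Without GFP-negative library 1, Tcrg-C1 (1.99), Tcrg-C4 (1.78) and Tcrg-V1 (1.82) did. The constant gene Tcrg-C1 stood at 6.06, 6.797 and 12.8 FPKM in libraries 1 to 3 of the GFP-negative group, against 37.2, 37.7 and 41.0 FPKM in those of the GFP-positive group. The GFP-positive libraries lay close together, and GFP-negative library 3 lay above the other GFP-negative libraries. The group means were 8.55 ± 3.69 and 38.6 ± 2.12 FPKM (SD, n = 3 each), a ratio of 4.52 and a log2 fold change of 2.18 ± 0.24 (SE) on the log2(FPKM + 0.5) scale.

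Tcrg-C2, the constant gene of the inverted cluster, stood at 5.56, 5.49 and 20.4 FPKM in the GFP-negative libraries and at 54.5, 62.2 and 59.1 FPKM in the GFP-positive libraries. GFP-negative libraries 1 and 2 were nearly equal and library 3 was well above them, yet below every GFP-positive library. The means were 10.5 ± 8.57 and 58.6 ± 3.87 FPKM, a ratio of 5.60 and a log2 fold change of 2.70 ± 0.54 (SE). Tcrg-C4, the most distant constant gene in sequence, stood at 4.36, 4.33 and 12.8 FPKM and at 30.2, 27.9 and 23.4 FPKM. It showed the same raised library 3, and its means were 7.17 ± 4.90 and 27.2 ± 3.46 FPKM with a log2 fold change of 2.02 ± 0.41 (SE).

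Trgv2, the variable gene of the Tcrg-C2 cluster, had the highest level of the 5, with 10.1, 16.0 and 26.9 FPKM in GFP-negative and 108.6, 76.96 and 104.4 FPKM in GFP-positive libraries. Its GFP-negative libraries were widely spread, with library 3 highest, and all lay well below the lowest GFP-positive library. The means were 17.7 ± 8.497 and 96.6 ± 17.2 FPKM, with a log2 fold change of 2.51 ± 0.34 (SE). Tcrg-V1, the variable gene of the Tcrg-C4 cluster, stood at 3.08, 8.28 and 3.54 FPKM and at 24.8, 15.8 and 22.3 FPKM. Here library 2, not library 3, was the highest GFP-negative library and also the lowest GFP-positive one. The means were 4.97 ± 2.88 and 20.97 ± 4.68 FPKM, with a log2 fold change of 2.07 ± 0.35 (SE).

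**Figure D1:**
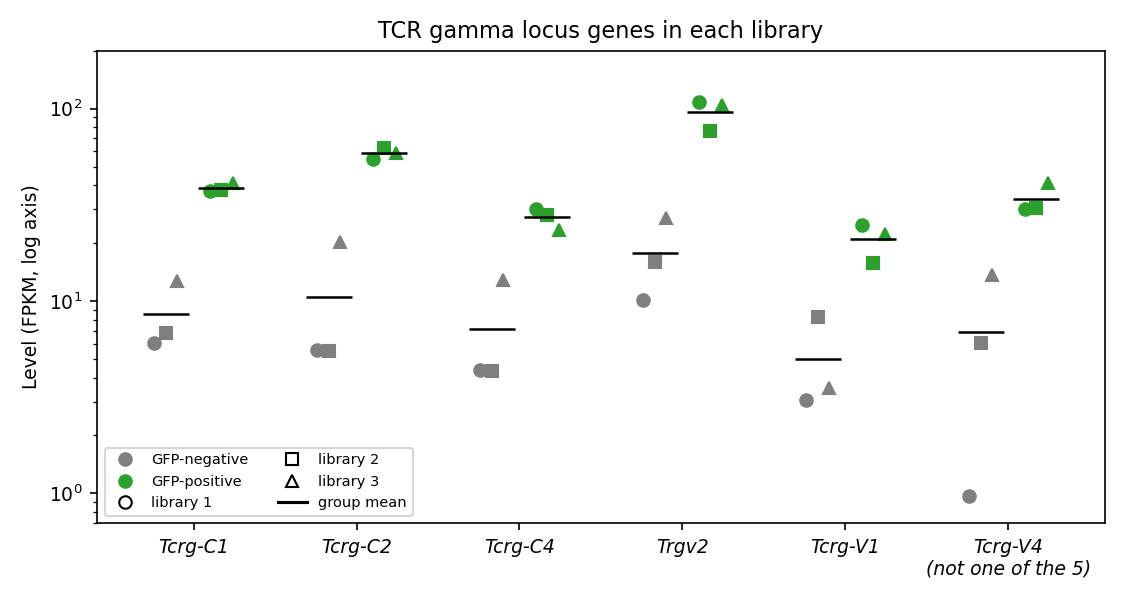
FPKM (log axis) of the 5 genes and of Tcrg-V4 in each library, with GFP-negative libraries in grey, GFP-positive libraries in green, a symbol per library number and lines at the group means. The triangles of GFP-negative library 3 lie highest in their group for every gene shown except Tcrg-V1, where library 2 does, at 8.28 FPKM.

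In GFP-positive cells the order of mean levels was Trgv2, Tcrg-C2, Tcrg-C1, Tcrg-C4 and Tcrg-V1. The libraries of Trgv2, Tcrg-C2 and Tcrg-C1 did not overlap with each other, nor did those of Tcrg-C1 and Tcrg-C4, while those of Tcrg-C4 and Tcrg-V1 did. In GFP-negative cells the order was the same, but the ranges of every pair of neighbours in it overlapped. The place of a V gene against a C gene depends on the lengths the authors' software used. That of Tcrg-C1 and Tcrg-C2 also depends on how shared reads were divided.

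Of the other 10 listed genes of the locus, 1 reached a mean of 1 FPKM and was tested. This was Tcrg-V4, the variable gene that gamma-delta cells of the adult mouse use widely. It stood at 0.965, 6.08 and 13.7 FPKM in GFP-negative and at 30.2, 30.5 and 41.3 FPKM in GFP-positive libraries. The groups did not overlap, and GFP-negative library 1 lay far below the other GFP-negative libraries. Its log2 fold change was 2.73 ± 0.93 (SE), and it did not pass the test over all genes (limma, adjusted p = 0.0669). Its call depended on the GFP-negative libraries, since the adjusted p was 0.0073 without library 1 (log2 fold change 1.82) and 0.0324 without library 3 (log2 fold change 3.46). It also passed in the fits without a filter on low values (adjusted p = 0.049), without trend and robust (0.0254), of the 4-library table (0.0357) and of libraries 2 and 3 alone (0.0208). GENCODE M21 has an antisense gene, Gm31887, across Tcrg-V4. The sources used here do not say whether counting used strand.

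The rest of the locus was at the edge of detection. Tcrg-V7, Tcrg-V6, Tcrg-V5 and Tcrg-V3 had a highest value of 2.17 FPKM in any library, each listed at 0 in at least 3 libraries. Tcrg-C3, which is 96.1% identical to Tcrg-C1 in exon 1, ranged from 0 to 0.434 FPKM. The joining segments Trgj1, Trgj2, Trgj3 and Trgj4, of 60 or 61 bases, were listed at 0 throughout. For genes this short, an exact 0 may only mean that no estimate was made. The values for constant genes therefore do not say which V and J genes they were joined to, nor whether the transcripts came from rearranged genes.

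**Figure D2:**
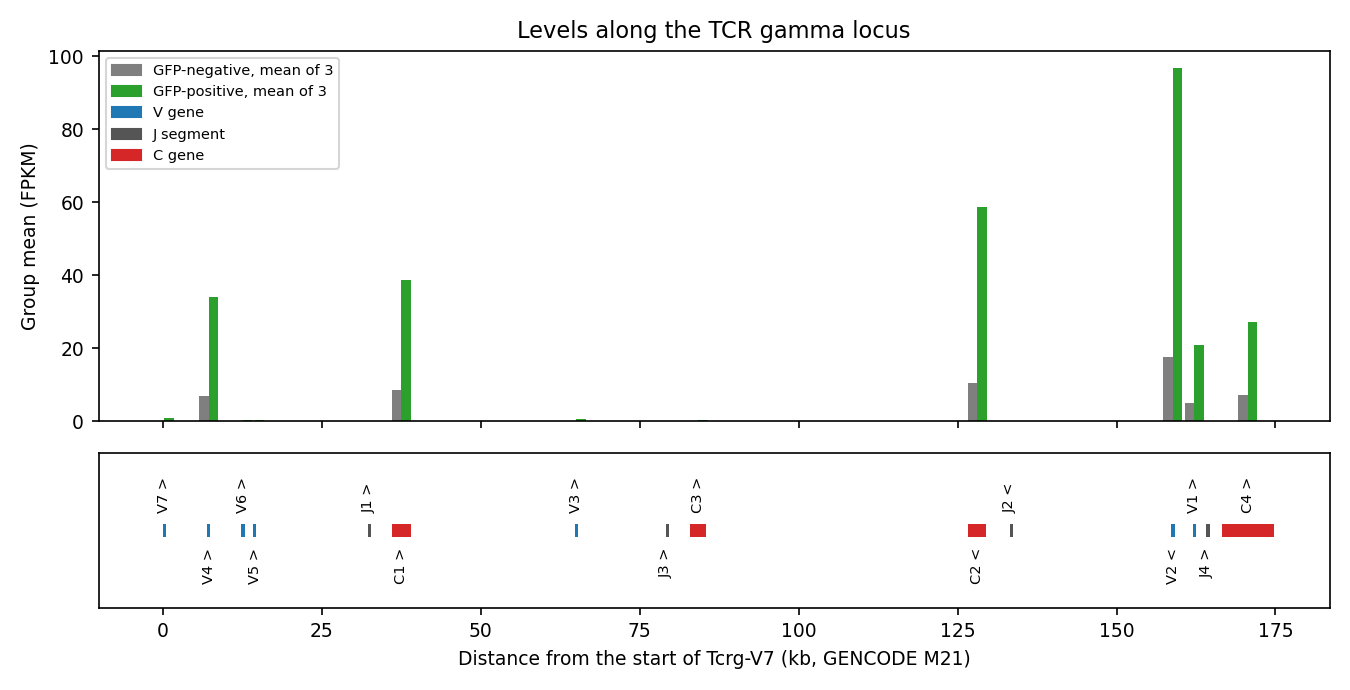
Group mean FPKM (upper panel) at the position of each gene, as distance in kb from the start of Tcrg-V7, over a map of the V, J and C genes with arrowheads for strand (lower panel). Tall green bars stand at Tcrg-V4, Tcrg-C1, Tcrg-C2, Trgv2, Tcrg-V1 and Tcrg-C4, and the other 9 genes do not reach a group mean of 1 FPKM.

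The makeup of the constant genes was next compared between libraries. Their summed level was 16.0, 16.6 and 46.0 FPKM in GFP-negative and 121.9, 127.8 and 123.6 FPKM in GFP-positive libraries. Tcrg-C1 made up 37.9%, 40.9% and 27.8% of that sum in GFP-negative libraries 1 to 3 and 29.5% to 33.2% in GFP-positive libraries. Tcrg-C2 made up 34.8%, 33.0% and 44.3% in GFP-negative and 44.7% to 48.7% in GFP-positive libraries. In GFP-negative libraries 1 and 2 Tcrg-C1 was thus the larger part, and in GFP-negative library 3 and all GFP-positive libraries Tcrg-C2 was. The share of Tcrg-C4 was 26.1% to 27.9% in GFP-negative and 18.9% to 24.8% in GFP-positive libraries. Because Tcrg-C1 and Tcrg-C2 share much of their sequence, the split between them is less certain than the share of Tcrg-C4.

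**Figure D3:**
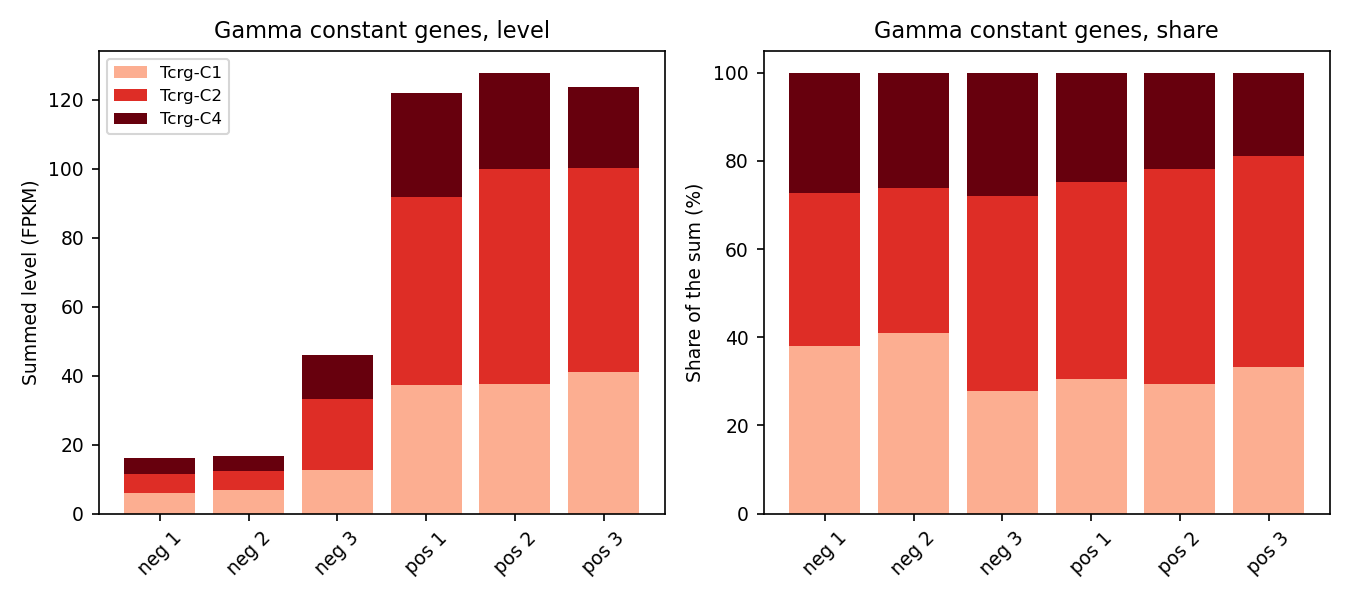
Level (left, FPKM) and share of the sum (right, %) of the 3 gamma constant genes as stacked bars, for GFP-negative (neg) and GFP-positive (pos) libraries 1 to 3. The sum is 46.0 FPKM in GFP-negative library 3, between 16.0 and 16.6 FPKM in libraries 1 and 2, and at least 121.9 FPKM in the GFP-positive libraries.

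Set against the constant genes of the TCR beta chain, the gamma constant genes were a small part in each library. Their sum was 1.68%, 1.56% and 5.35% of the sum of Trbc1 and Trbc2 in the GFP-negative group (libraries 1 to 3) and 16.6% to 17.7% of it in GFP-positive libraries. The beta constant genes themselves were abundant in each library, with Trbc2 at 553.6 to 670.8 FPKM in GFP-negative and 460.03 to 507.7 FPKM in GFP-positive cells. The variable gene of a cluster and its constant gene did not keep a fixed ratio. Trgv2 to Tcrg-C2 ran from 1.32 to 2.92 in GFP-negative and from 1.24 to 1.99 in GFP-positive libraries. Tcrg-V1 to Tcrg-C4 ran from 0.276 to 1.91 and from 0.564 to 0.953, and Tcrg-V4 to Tcrg-C1 from 0.159 to 1.07 and from 0.809 to 1.01. The ranges overlapped for each pair, and the size of each ratio depends on the lengths the authors' software used.

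GFP-negative library 3 was then compared with GFP-negative libraries 1 and 2. Tcrg-C2 was 3.69-fold, Tcrg-C4 2.95-fold, Trgv2 2.05-fold and Tcrg-C1 1.99-fold the mean of the other libraries, and Tcrg-V4 3.89-fold. Tcrg-V1 went the other way, at 0.624 of that mean. On the log2(FPKM + 0.5) scale the differences were 1.79 for Tcrg-C2, 1.46 for Tcrg-C4, 1.05 for Trgv2, 0.94 for Tcrg-C1 and -0.47 for Tcrg-V1. Over all 11465 genes the median difference was 0.08 and 90% of differences lay between -0.50 and 0.75. The raised level of library 3 was already known when the 5 genes were picked, so these values are a description with no test. On the way from GFP-negative libraries 1 and 2 to the GFP-positive mean, library 3 stood at 58.2% for Tcrg-C4, 54.4% for Tcrg-C2, 37.7% for Tcrg-C1 and 36.6% for Trgv2.

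**Figure D4:**
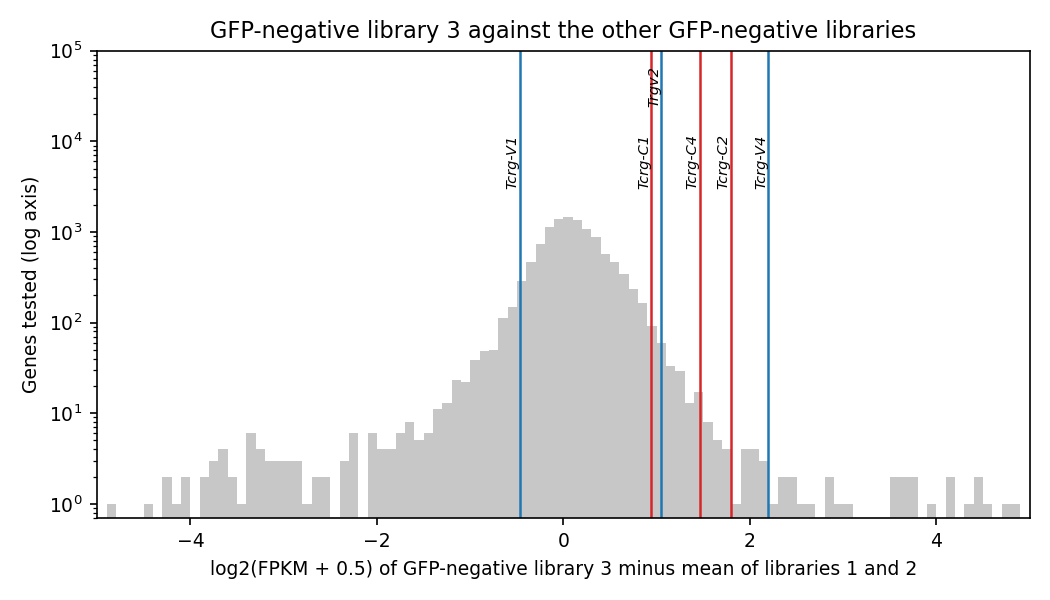
Number of genes tested (log axis) by the log2(FPKM + 0.5) difference of GFP-negative library 3 from the mean of libraries 1 and 2, with lines for constant genes in red and variable genes in blue, and 41 genes outside the axis. All lines except that of Tcrg-V1, at -0.47, lie on the right side of the distribution, at 0.94 or more.

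Without library 3 the log2 fold changes rose to 2.50 for Tcrg-C1, 3.29 for Tcrg-C2, 2.51 for Tcrg-C4 and 2.86 for Trgv2, while that of Tcrg-V1 fell to 1.91. Against library 3 alone, the GFP-positive means were still 3.02-fold higher for Tcrg-C1, 2.88-fold for Tcrg-C2, 2.12-fold for Tcrg-C4, 3.60-fold for Trgv2 and 5.92-fold for Tcrg-V1. The authors' 4-library run, which leaves out library 1 of both groups, gave values at 96.8% to 105.5% of those in the 6-library run for the 5 genes and Tcrg-V4. In it the log2 fold changes were 2.04 for Tcrg-C1, 2.47 for Tcrg-C2, 1.75 for Tcrg-C4, 1.69 for Tcrg-V1 and 2.09 for Trgv2. Other genes moved with library 3. The summed level of 5 proliferation markers, Mki67, Top2a, Ccnb1, Plk1 and Ube2c, was 165.0, 177.4 and 305.4 FPKM in the GFP-negative group (libraries 1 to 3) and 623.4 to 668.6 FPKM in GFP-positive libraries. The summed level of 5 markers of the alpha-beta double-positive stage, Cd4, Cd8a, Cd8b1, Rag1 and Trac, was 2279, 2955 and 1952 FPKM in GFP-negative and 283.5 to 317.5 FPKM in GFP-positive libraries. Library 3 was thus the highest GFP-negative library for the first list and the lowest for the second. Cd4 itself reached 190.1 to 256.1 FPKM in GFP-negative libraries, although DN4 cells are defined by its absence at the surface. The part of these differences in the levels of the gamma genes was not tested.

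Markers of other cells the sort could hold were read as well. The 7 markers of NK and innate cells summed to 16.8, 20.2 and 38.1 FPKM in GFP-negative and 95.9 to 102.8 FPKM in GFP-positive libraries. Nearly all of it was Gzma, a granule protease, at 14.6, 18.9 and 37.2 FPKM and at 95.3 to 101.4 FPKM. Ncr1, which defines NK cells, was at 0 in all libraries except GFP-positive library 1 (0.0828 FPKM). Prf1 went the other way, at 0.725, 1.22 and 0.809 FPKM in GFP-negative and at most 0.152 FPKM in GFP-positive libraries. Klrb1c, Klrk1 and Gzmb were highest in library 1 of both groups, with Klrb1c at 0.337 and 1.81 FPKM there. Eomes did not exceed 0.109 FPKM. The part of NK and innate cells in the result was not tested. B cell markers summed to 7.10 to 9.62 FPKM in GFP-negative and 2.24 to 3.60 FPKM in GFP-positive libraries, with Pax5, a factor that defines B cells, at 0 throughout. Most of the B cell sum was Cd79b, at 6.94 to 9.42 and 1.85 to 3.07 FPKM, while Cd79a was highest in GFP-positive libraries 1 and 2. Myeloid markers summed to 3.81 to 5.46 and 1.54 to 2.64 FPKM. Itgam, at 1.52 to 2.37 and at most 0.0515 FPKM, and Csf1r were lower in each GFP-positive library. The groups overlapped for Cd68, Lyz2 and Itgax. The 4 genes Il2ra, Ptcra, Kit and Cd44, of earlier double-negative stages, summed to 20.9 to 23.3 and 22.9 to 30.1 FPKM. Most of that sum was Ptcra, at 12.5 to 16.6 FPKM in GFP-negative and 18.7 to 21.3 FPKM in GFP-positive libraries. Kit was also higher in each GFP-positive library, while the groups overlapped for Il2ra and Cd44.

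The delta chain, partner of the gamma chain, was read next. Trdc, the delta constant gene, was not analysed here. Of 9 other delta genes listed, 4 were tested, of which limma called 0 as higher and 1 as lower in GFP-positive cells, beside 24.4% and 29.8% of all genes. Their median log2 fold change was 0.27, beside -0.08 over all genes, and without GFP-negative library 2 it was -0.12 over 3 genes. Without GFP-positive library 1 or 3 there were 0 calls. Trdv5 stood at 5.11, 14.6 and 13.9 FPKM in GFP-negative and 19.2, 21.1 and 22.7 FPKM in GFP-positive libraries. Its groups did not overlap, and its log2 fold change of 1.005 missed the threshold (adjusted p = 0.0643). It passed without GFP-negative library 1 (0.54, adjusted p = 0.00891), without GFP-negative library 2 (1.26, adjusted p = 0.034) and in 6 other fits, the one with a replicate block among them (adjusted p = 0.0199). Trdv1 stood at 11.7 ± 3.804 and 12.9 ± 3.19 FPKM (SD, n = 3 each; log2 fold change 0.17, adjusted p = 0.629).

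Trdv2-2 was the delta gene that fell, with means of 10.8 ± 1.27 and 7.52 ± 1.395 FPKM (n = 3 each, SD) and a log2 fold change of -0.50 (limma, adjusted p = 0.0283). The call did not last when GFP-negative library 1 (-0.41) or 2 (-0.54) or GFP-positive library 1 (-0.39) or 3 (-0.47) was left out, nor in 4 other fits, at adjusted p up to 0.178. Trdv2-1 ranged from 0 to 2.99 FPKM with overlapping groups (log2 fold change 0.38, adjusted p = 0.688). Whether the delta genes differ from the gamma genes was not tested.

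Among 20 genes known from gamma-delta T cells, 11 were tested, 6 were higher and 4 lower in GFP-positive cells, where 24.4% and 29.8% of all genes were. Of the 6, 5 had a GFP-negative mean below 1 FPKM and so passed the filter on low values only through the group where they are high, and nothing is read from this count or from the median log2 fold change of 1.19. Without a filter there were 6 higher and 5 lower among 19 genes, with a median of 0.35, and with a minimum mean of 5 FPKM 1 higher and 4 lower among 5, with a median of -0.81. When GFP-positive library 1 was left out there were 7 calls among 9 genes, with a median of -0.36. The list was drawn up with earlier results of these libraries known, so the adjusted p of its genes are given as a description. Sox13, Cd163l1 and Etv5, named below, are among the 5 with a GFP-negative mean below 1 FPKM. 5830411N06Rik, which belongs like Cd163l1 to the scavenger receptor family, stood at 0.787, 0.691 and 1.94 FPKM in GFP-negative and at 15.2, 11.4 and 14.6 FPKM in GFP-positive libraries (log2 fold change 3.19 ± 0.28 (SE), limma, adjusted p = 5.78e-05). Sox13, a transcription factor of gamma-delta cells, stood at 0.516, 0.459 and 1.43 FPKM and at 7.97, 6.22 and 8.43 FPKM (2.69 ± 0.29, adjusted p = 0.00016). Cd163l1 stood at 0.305, 0.177 and 0.623 FPKM in the GFP-negative libraries (2.19, adjusted p = 0.000445). In these 3 genes library 3 was again the highest GFP-negative library. Etv5, a transcription factor downstream of TCR signals in gamma-delta cells, rose with 0.644, 0.663 and 0.851 FPKM in GFP-negative and 3.29 to 5.13 FPKM in GFP-positive libraries (1.89, adjusted p = 0.00031).

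Among the genes of that list that fell were Cd27, Sox4 and Id3, which alpha-beta thymocytes express as well. Cd27, a costimulatory receptor, had a log2 fold change of -2.15 (limma, adjusted p = 1.07e-05). Sox4, a transcription factor, had means of 91.1 ± 11.2 and 51.6 ± 0.456 FPKM (n = 3 each, SD) and fell by 0.81 on the log2 scale (adjusted p = 0.000721). Id3, an inhibitor of E proteins, had means of 43.7 ± 13.9 and 25.9 ± 1.28 FPKM (-0.69, adjusted p = 0.0198). The call of Id3 was lost without GFP-negative library 2 (-0.70) or GFP-positive library 1 (-0.68) or 3 (-0.67), at adjusted p of 0.0575 to 0.0597, and in both fits of libraries 2 and 3. Of the cytokine genes on the list, which were not tested, Il17a was listed at 0 in every library, Ifng in all except GFP-positive library 1 (0.533 FPKM), and Il17f ranged from 0.125 to 0.852 FPKM.

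Genes of the IL-7 receptor pathway went both ways, with 2 higher and 5 lower among 8 tested of 9 and a median log2 fold change of -0.56. These are 25.0% and 62.5% of the list, beside 24.4% and 29.8% of all genes, so the share higher was near the background. Il7r, the receptor chain specific to the cytokine, stood at 2.08, 0.766 and 1.84 FPKM in GFP-negative and at 10.5, 5.57 and 4.70 FPKM in GFP-positive libraries. The groups did not overlap, and the log2 fold change was 1.84 ± 0.35 (SE; limma, adjusted p = 0.0027). Jak3, the kinase bound to the common gamma chain, rose, with means of 4.99 ± 0.715 and 7.82 ± 0.467 FPKM (n = 3 each, SD; 0.61, adjusted p = 0.00898). Il2rg, that common chain, fell from 105.6 ± 14.3 to 56.9 ± 0.295 FPKM (-0.88, adjusted p = 0.000576), and Jak1, the kinase bound to Il7r, from 63.0 ± 6.68 to 33.2 ± 1.56 FPKM (-0.91, adjusted p = 0.000378). Stat5b, a transcription factor the receptor activates, had a log2 fold change of -0.82 (adjusted p = 0.000508) and Pim1, a kinase induced by STAT5, one of -0.65 (adjusted p = 0.00309).

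Of 11 transcription factors and inhibitors that act on TCR loci, all tested, 2 were higher (18.2%) and 4 lower (36.4%), near the 24.4% and 29.8% of all genes. Their median log2 fold change was -0.07. It ran from -0.33, without GFP-negative library 3, to 0.08, without GFP-positive library 2, and was also above 0 without GFP-negative library 1 (0.06) or GFP-positive library 3 (0.02). It was -0.27 without GFP-positive library 1 and -0.16 without GFP-negative library 2. Runx3, a Runt factor, had means of 2.36 ± 0.624 and 5.03 ± 1.94 FPKM (n = 3 each, SD; log2 fold change 0.92, limma, adjusted p = 0.0179). Cbfb, the partner of Runt factors, had a log2 fold change of 0.35 (adjusted p = 0.0364). Myb fell most, from 215.8 ± 28.0 to 84.5 ± 3.96 FPKM (-1.34, adjusted p = 8.87e-05), followed by Id3, Bcl11b, which keeps T cell identity (-0.50, adjusted p = 0.00657), and the E protein Tcf12 (-0.37, adjusted p = 0.0163). The calls of Runx3 and Cbfb were weak. That of Runx3 was lost without GFP-negative library 2 (0.83, adjusted p = 0.0648) or GFP-positive library 1 (0.65, adjusted p = 0.0601), and that of Cbfb in all 6 fits that left out a library except the one without GFP-negative library 3 (0.25 to 0.40 over the lost calls, adjusted p of 0.0539 to 0.122). The call of Tcf12 was lost without GFP-positive library 2 (-0.34, adjusted p = 0.0841) and in the fit of the 4-library run (-0.39, adjusted p = 0.0683). Without GFP-negative library 2, or without GFP-positive library 1, the list had 3 calls.

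The CD3 chains, which carry gamma-delta as well as alpha-beta receptors to the surface, were lower for 3 of 4, beside 29.8% of all genes. Cd247, the zeta chain, fell, with means of 119.0 ± 12.9 and 49.4 ± 2.90 FPKM (n = 3 each, SD; log2 fold change -1.25, limma, adjusted p = 8.96e-05), Cd3d by 0.75 on the log2 scale (adjusted p = 0.00142) and Cd3e by 0.43 (adjusted p = 0.0158). Cd3g had a log2 fold change of -0.29 (adjusted p = 0.0709; 0.0258 without GFP-negative library 1). The call of Cd3e was lost without GFP-negative library 2 (-0.34, adjusted p = 0.0623) or GFP-positive library 3 (-0.39, adjusted p = 0.0712).

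Protein-coding neighbours of the locus were read as well. Of the 5 nearest protein-coding genes on each side, 4 of 10 were tested, 1 was higher and 0 lower, and 1 of 4 is near the 24.4% of all genes called higher. Stard3nl, a cholesterol-binding protein of late endosomes whose gene lies next to Tcrg-C4 (chr13:19357676-19395795), stood at 2.60, 2.91 and 3.47 FPKM in GFP-negative and 4.52, 5.02 and 4.76 FPKM in GFP-positive libraries (log2 fold change 0.60 ± 0.17 (SE), limma, adjusted p = 0.0154). The call was lost without GFP-positive library 2 (0.56, adjusted p = 0.0639). Amph, the nearest gene on the other side, was at most 0.0757 FPKM in any library. Rala (log2 fold change 0.09, adjusted p = 0.543), Yae1d1 (0.32, adjusted p = 0.194) and Vps41 (-0.14, adjusted p = 0.423) had smaller values, and Epdr1, Sfrp4, Nme8 and Gpr141 did not reach 0.07 FPKM.

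**Figure D5:**
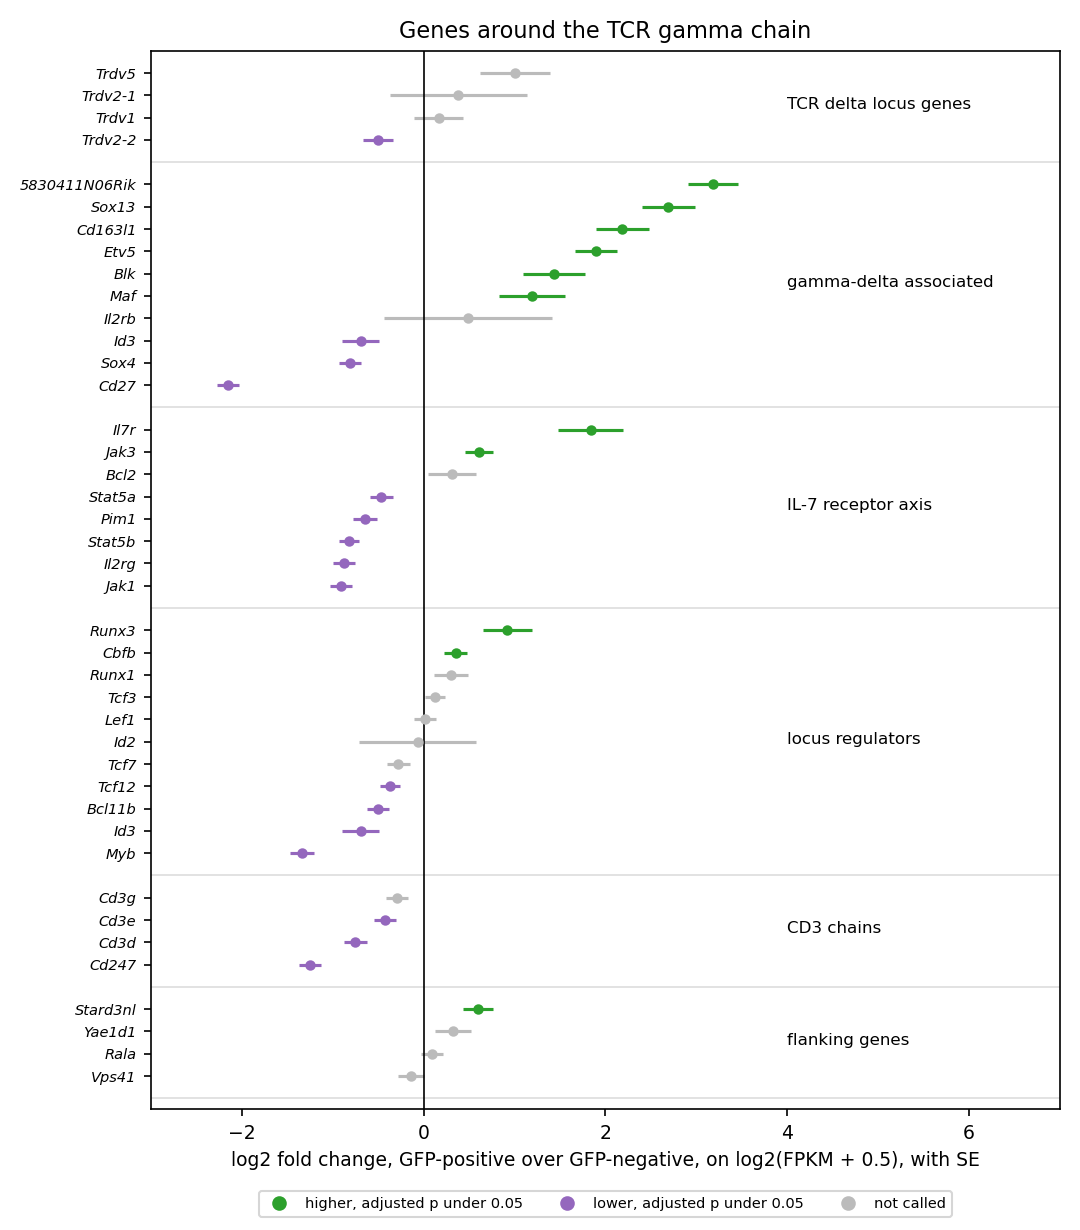
Log2 fold change (GFP-positive over GFP-negative on log2(FPKM + 0.5), bars are SE) of the tested genes of the 6 lists that are reported here, green for higher, purple for lower and grey for no call at an adjusted p of 0.05. 5830411N06Rik, at 3.19, lies farthest to the right, and Cd27, at -2.15, farthest to the left.

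Finally, genes whose pattern over the 6 libraries was most like the mean of the 5 gamma genes were sought outside the locus, by Pearson's r of log2(FPKM + 0.5). They were Rps27a, Rpl32 and Rpl22l1, which encode ribosomal proteins or a relative of one, Ndufb4, a subunit of respiratory complex I, and Atm, the kinase that responds to DNA breaks, with r of 0.9986 to 0.9998. Rps27a stood at 234.8, 268.5 and 330.4 FPKM in GFP-negative and at 567.3, 542.1 and 559.5 FPKM in GFP-positive libraries, the same order of GFP-negative libraries at a smaller amplitude. The points share libraries and fall into 2 groups, and 13.9% of 11459 genes had an r of at least 0.95.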

How the data were processed

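Total RNA of sorted cells was sequenced after removal of ribosomal RNA, per the labels' protocols. TopHat2, Cuffdiff and the build mm10 are named in the submitters' processing notes, while the sources used here give no annotation release or strand setting. FPKM per library were deposited from a run over 6 libraries and from another over libraries 2 and 3 of both groups. The third deposited table lists Gata3 alone, from the authors' earlier reports, and was not used.

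GFP-positive and GFP-negative libraries were compared with limma 3.58.1 in R 4.3.3 (trend and robust, two-sided), using log2(FPKM + 0.5) of genes whose mean reached 1 FPKM and leaving out 24 genes of status HIDATA. Fold changes on this scale understate those of low genes. The Benjamini-Hochberg adjustment ran over all genes tested, with a threshold of 0.05. The procedure was run on simulated data in which far fewer genes changed than were called here, so that check does not cover the present setting. FPKM are not counts, so no count test was run. The genes and lists were chosen with earlier results of these data known. Named are all tested genes of the gamma and delta loci, up to 4 genes called per direction in each other list, and the 5 genes most like the gamma genes; others were named after their values were seen. Exons and sequences come from GENCODE M21, which uses the same build. Alternatives were other pseudocounts, filters and scalings, a replicate block, limma without trend and robust, protein-coding genes only, the 4-library table, the same 4 libraries in the 6-library table and each library left out. Some genes of the lists are counted but not reported here by name.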

Additional observations from a re-analysis of the deposited data

How the results depend on the processing

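Each of the 5 gamma genes kept its direction in every fit that held it. Leaving out each library in turn moved the log2 fold change between 1.99 and 2.50 for Tcrg-C1, 2.39 and 3.29 for Tcrg-C2, 1.77 and 2.51 for Tcrg-C4, 1.82 and 2.47 for Tcrg-V1, and 2.17 and 2.86 for Trgv2. Over the whole table these fits called 5052 to 6130 genes, against 6216 with all libraries.

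Counts of calls in lists moved as follows, and the causes were not tested except where fewer genes were tested. The other gamma genes went from 0 calls to 1 without a filter, without trend and robust, in the 4-library table and in libraries 2 and 3 of the 6-library table (0 to 1 over single libraries left out). The delta genes went from 1 call to 0 without a filter and to 2 with a minimum mean of 5 FPKM, with upper quartile scaling and with the replicate block (0 to 1 over single libraries left out). With that minimum 5 gamma-delta associated genes were called, all 5 that were tested, instead of 10, and the median log2 fold change of the list was -0.81 (7 to 10 calls over single libraries left out). The locus regulators went from 6 calls to 3 in the 4-library table (3 to 7 over single libraries left out). The flanking genes went from 1 call to 0 with the minimum of 5 FPKM, in the 4-library table and in libraries 2 and 3 of the 6-library table (0 to 1 over single libraries left out). The fit of protein-coding genes held no gamma or delta gene.

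Replicate numbers are shared between groups, and the labels do not say whether same-numbered libraries share an animal or a day. Deviations of same-numbered libraries correlated at 0.094, -0.02 and 0.061. GFP-negative library 1 correlated best with its own number, and GFP-negative libraries 2 and 3 did not. Correlations this weak cannot decide whether the libraries were paired. The replicate block called 6390 genes over the whole table. With no read totals, depth sets no limit that can be stated, and short V and J genes near 0 FPKM are the least certain values.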
